A study of Mus musculus with 18 samples.

Results

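Imprinted genes that set growth were followed in C2C12, an established line of mouse muscle precursors (myoblasts) whose cells fuse into multinucleate myotubes when serum is lowered. They were H19, Igf2, Igf2r, Cdkn1c, Grb10 and Plagl1, 6 of the 55450 genes in the count table. All lie outside the Dlk1-Dio3 cluster, the imprinted region whose promoter was edited in this study. They were chosen by the high H19 counts of these same libraries and by gene function, so H19 is given as a description: no p of it is printed, and it is left out of every count of genes past the threshold. The other 5 members were picked for what they do, with earlier results of these libraries known.

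The study compared cells with edited Dlk1-Dio3 promoters before and after differentiation. Polyadenylated RNA was sequenced from 18 libraries in 6 groups of 3, labelled replicates A, B and C. The control was a sorted population of C2C12 cells that had received the pX458 vector without guides. The Dlk1-Dio3 overexpressor and the Dlk1-Dio3 knockout were each 1 clone, grown from a single cell after transfection with a pair of guide RNAs against the Meg3 proximal promoter. Each line was sampled as myoblasts in growth medium and as myotubes on day 3 of differentiation. Each genotype was therefore 1 line, so genotype and clone cannot be told apart, and the p-values measure the spread between cultures or libraries of a line, which may be technical. Both clones were compared with the same control libraries.

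Imprinted genes are transcribed mainly from the copy inherited from 1 parent. H19 and Igf2 lie side by side and share enhancers. On the maternal copy, the insulator protein CTCF keeps those enhancers from Igf2 and H19 is transcribed, and on the paternal copy methylation blocks CTCF and Igf2 is transcribed. IGF2 is a growth factor that myoblasts secrete as they differentiate, and it drives both growth and differentiation through the IGF1 receptor. IGF2R binds IGF2 and carries it to the lysosome. GRB10 is an adaptor that dampens signalling from the insulin and IGF1 receptors, CDKN1C (p57) is an inhibitor of cyclin-dependent kinases, and PLAGL1 (ZAC1) is a zinc finger transcription factor that restrains proliferation. H19 is a noncoding RNA made in large amounts in embryonic muscle, and its first exon is the precursor of a microRNA.

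That microRNA is shown because its seeds can be looked for in the transcripts of other genes. Both mature arms of miR-675 lie on the minus strand of chromosome 7 inside H19, and their seeds (bases 2 to 8) are in capitals. The sequences are those of RefSeq on GRCm38.p6.
mmu-miR-675-5p (chr7:142577112-142577133): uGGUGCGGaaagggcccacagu
mmu-miR-675-3p (chr7:142577078-142577099): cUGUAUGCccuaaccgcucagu
Libraries of polyadenylated RNA do not measure mature microRNAs. The Mir675 gene had 0 counts in every library, but it lies wholly inside an H19 exon on the same strand. Of 91 genes lying in this way inside an abundant gene, 0 had any count, so this 0 does not measure the precursor. The letters complementary to the seeds were looked for in the longest annotated 3′ UTR of Smad1, Smad5, Cdc6 and Igf1r. The first 3 have been described as miR-675 targets in muscle, and Igf1r encodes the receptor for IGF2. The complement of the 5p seed, CCGCACC, occurred once, in Cdc6, and in 2.15% of the 3′ UTRs of 21824 genes. The complement of the 3p seed, GCATACA, occurred once in Smad5 and at 2 places in Igf1r, and in 8.11% of all 3′ UTRs. Smad1 held neither. The stretches around the matches are given in full, with the matching letters in capitals, and a match is a description of the letters only.
Cdc6, complement of the 5p seed: acggccttttttactCCGCACCagtaaatt
Smad5, complement of the 3p seed: accacctttgaaaaaGCATACAttgtttgc
Igf1r, first complement of the 3p seed: gctcctcatcaccccGCATACAcctgcctg
Igf1r, second complement of the 3p seed: gaccgtgaaacatttGCATACAcatcgtct

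Promoters of Igf2 and Igf2r are shown because both genes rose with differentiation in all 3 lines. The bases are the 250 before a RefSeq start site that no annotated exon covers, on the minus strand of GRCm38.p6. E-boxes (CANNTG, which reads the same on both strands), the letters bound by MyoD and many other factors, are in capitals.
Igf2, most distal start (chr7:142666817-142667066): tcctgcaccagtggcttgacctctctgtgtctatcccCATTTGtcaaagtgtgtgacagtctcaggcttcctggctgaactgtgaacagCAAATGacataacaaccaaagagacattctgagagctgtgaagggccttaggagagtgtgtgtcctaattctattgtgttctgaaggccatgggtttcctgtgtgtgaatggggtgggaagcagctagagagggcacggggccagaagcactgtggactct
Igf2, most proximal start (chr7:142657497-142657746): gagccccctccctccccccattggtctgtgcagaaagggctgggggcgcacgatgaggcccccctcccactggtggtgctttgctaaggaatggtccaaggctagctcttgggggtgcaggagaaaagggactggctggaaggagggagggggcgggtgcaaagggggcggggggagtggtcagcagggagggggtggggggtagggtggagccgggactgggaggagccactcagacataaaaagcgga
Igf2r (chr17:12769707-12769956): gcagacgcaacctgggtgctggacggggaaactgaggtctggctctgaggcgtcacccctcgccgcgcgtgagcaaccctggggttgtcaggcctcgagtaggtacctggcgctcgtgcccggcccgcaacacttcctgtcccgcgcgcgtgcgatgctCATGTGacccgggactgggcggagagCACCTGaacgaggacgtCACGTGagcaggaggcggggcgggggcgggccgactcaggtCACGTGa
The distal Igf2 window held 2 E-boxes, the proximal one 0 and the Igf2r window 4. At least 1 E-box occurred in 66.2% of all 32851 promoter windows of this length. CG dinucleotides, the sites of DNA methylation, numbered 1 and 6 in the Igf2 windows shown and 27 in the Igf2r window, against a median of 6 over all windows. Igf2 windows that overlapped an exon are not shown, and held 10 and 22 CG dinucleotides and 0 E-boxes each. RefSeq entries were found for 4 of the 6 members.

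Library totals ran from 41544358 to 79140702 counts. Meg3 had 0 counts in all control and all knockout libraries and 5222 to 7763 in the overexpressor libraries, so it separated the overexpressor and could not check the label of the knockout. Muscle identity was checked on markers. The summed level of 5 myotube markers (Myog, Myh3, Ckm, Acta1, Mymk) was 232 to 355 CPM (counts per 1e+06, scaled with TMM factors) in control myoblasts, 405 to 670 in overexpressor myoblasts and 8611 to 10997 in knockout myoblasts. In myotubes it was 12608 to 13145 in control, 18059 to 20143 in the overexpressor and 27083 to 32355 in the knockout. Each of the 5 passed the test in knockout against control myoblasts, with log2 differences of 3.46 to 6.08. The summed level of 4 myoblast markers (Myod1, Myf5, Des, Cdh15) ran from 1357 to 1507 CPM in control myoblasts to 7839 to 10424 CPM in knockout myotubes, and none was at 0 in any group. Summed adipocyte, endothelial, immune and hepatocyte markers did not exceed 1.83 CPM in any library. The summed level of 5 fibroblast markers (Pdgfra, Col1a1, Lum, Thy1, Postn) was 807 to 862 CPM in control, 55.5 to 69.5 in overexpressor and 430 to 685 in knockout myoblasts. In myotubes it was 6048 to 7145 CPM in control, 377 to 563 in the overexpressor and 1531 to 1689 in the knockout. Of the 4 tested, none rose and 2 fell in overexpressor myoblasts, 3 rose and 1 fell in knockout myoblasts, and 4 and 3 fell in overexpressor and knockout myotubes. Lum and Thy1 were at 0 in control myoblasts. The part of these differences in the members' values was not tested.

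Counting affected these genes unequally. Among genes lying wholly inside exons of an abundant gene, 0 of 91 on its strand had any count, against 39 of 45 on the opposite strand. The labels do not state whether counting used strand, so reads of antisense partners cannot be told apart with certainty. Igf2 (chromosome 7, 142650766 to 142666816, minus strand) shares 3596 of its 5723 exon bases (62.8%), including most of its coding sequence, with Gm49394, a gene on the same strand whose own exons begin further upstream. If shared bases of 1 strand went uncounted, its counts come from the remaining 2127 bases. Cdkn1c (chromosome 7, 143458339 to 143461050, minus strand) shares 30.7% of its exon bases with Gm44732 on the opposite strand, which had 0 to 82 counts per library. H19 (chromosome 7, 142575529 to 142578143, minus strand), Igf2r (chromosome 17, 12682406 to 12769664, minus strand), Grb10 (chromosome 11, 11930508 to 12038683, minus strand) and Plagl1 (chromosome 10, 13060504 to 13131694, plus strand) share at most 3.41% of their exon bases with any 1 gene.

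**Figure D1:**
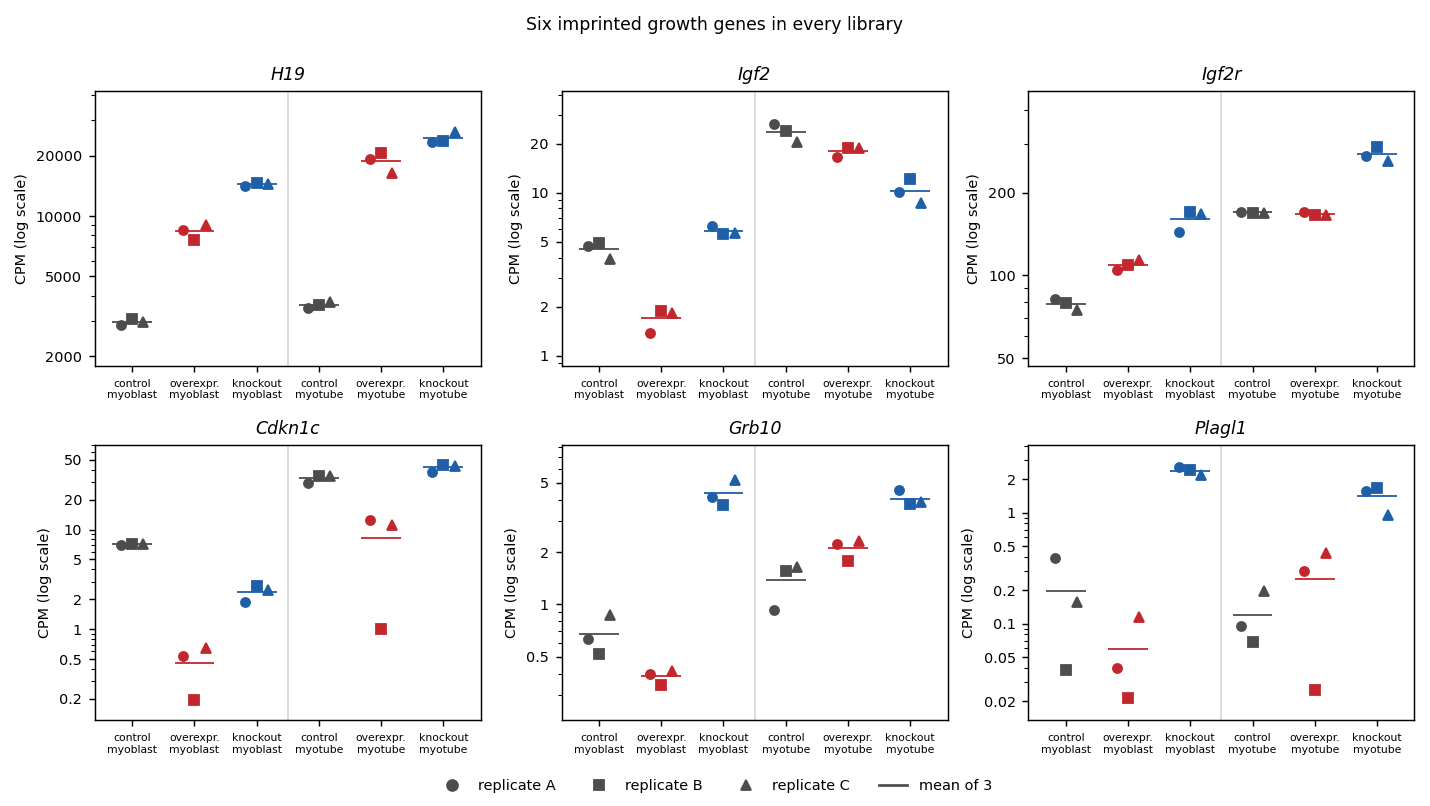
CPM of each gene in every library on a log axis, by line and stage; symbols mark replicates A, B and C and lines the mean of 3. H19 stands lowest in the 6 control libraries, while Plagl1 and Grb10 stand highest in the 6 knockout libraries.

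H19 was among the most abundant transcripts of every library. It took 0.31 to 0.328% of all counts in control myoblasts and 0.312 to 0.341% in control myotubes, where it ranked between the 14th and the 16th gene by count. In both clones its share was larger: 0.806 to 0.942% in overexpressor myoblasts, 1.51 to 1.52% in knockout myoblasts, 1.63 to 2.09% in overexpressor myotubes and 2.22 to 2.39% in knockout myotubes. It was the gene with the second highest count in overexpressor myoblasts and the highest in the other 3 clone groups.

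By library, H19 stood at 2860, 3063 and 2983 CPM in control myoblasts, 8526, 7636 and 9045 in overexpressor myoblasts and 14160, 14600 and 14493 in knockout myoblasts. In myotubes it stood at 3487, 3587 and 3721 CPM in control, 19306, 20676 and 16448 in the overexpressor and 23322, 23574 and 26304 in the knockout. No group overlapped with another, and every clone library was above every control library. In a bulk sample, more cells of a type and more RNA per cell cannot be told apart. The log2 difference from control was 1.5 (SE 0.085) in overexpressor and 2.28 (SE 0.087) in knockout myoblasts, and 2.39 (SE 0.087) and 2.76 (SE 0.088) in the corresponding myotubes. Between stages the log2 difference was 0.28 for control, 1.16 for the overexpressor and 0.76 for the knockout, and the value in control shrank to 0.035 when libraries were scaled by their totals. Per kilobase of unshared exon, H19 reached 1249 CPM in control myoblasts and 10269 CPM in knockout myotubes, where no other member exceeded 29.7 CPM.

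**Figure D2:**
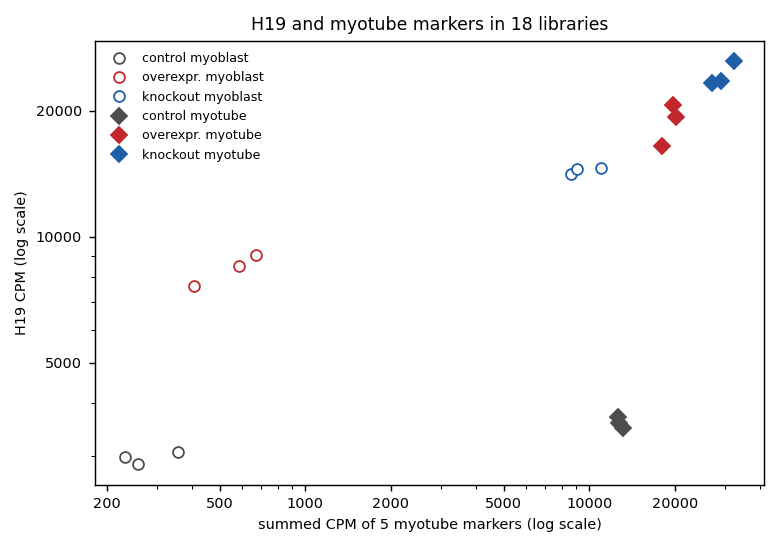
H19 CPM against the summed CPM of 5 myotube markers in each of the 18 libraries, both on log axes; open circles are myoblasts and filled diamonds myotubes. Control myotubes, at 12608 to 13145 CPM of markers, hold 3487 to 3721 CPM of H19, below the 14160 to 14600 CPM of knockout myoblasts at 8611 to 10997 CPM of markers.

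H19 and the summed myotube markers had the same order of lines within each stage, lowest in control and highest in the knockout. In each line both were higher in myotubes than in myoblasts. Across stages the orders differed. Control myotubes had more of the markers in sum than knockout myoblasts and less H19 than any clone library. Among the markers, Ckm went the other way, at 208.8 to 240.9 CPM in control myotubes against 260.3 to 320.6 in knockout myoblasts. Acta1 overlapped between these groups. Overexpressor myoblasts had at most 670 CPM of the markers and more H19 than control myotubes. The part of the marker level in the H19 values was not tested.

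Igf2, the ligand, moved with differentiation in all lines and differed between the lines in each stage. Its counts were low, from 69 to 1494 per library. It stood at 4.72, 4.90 and 3.94 CPM in control myoblasts, 1.38, 1.88 and 1.83 in overexpressor myoblasts and 6.24, 5.57 and 5.70 in knockout myoblasts. In myotubes it stood at 26.5, 24.1 and 20.6 CPM in control, 16.6, 18.7 and 18.7 in the overexpressor and 10.1, 12.1 and 8.62 in the knockout. All myotube libraries were above all myoblast libraries, and no 2 groups overlapped.

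Igf2 was lower in overexpressor than in control myoblasts, with a log2 difference of -1.42 (SE 0.15, edgeR adjusted p = 5.64e-07). In knockout myoblasts it was higher by 0.365 (SE 0.14, adjusted p = 0.0356), a call lost under 6 of 12 alternatives, with the highest adjusted p of 0.153 without control replicate C. The others were library totals and leaving out control replicate A or any of the knockout replicates A, B and C. In myotubes it was lower in both clones, by -0.40 in the overexpressor (SE 0.13, adjusted p = 0.0135) and by -1.21 in the knockout (SE 0.13, adjusted p = 2.64e-07). The overexpressor call was lost under 7 of 12 alternatives, among them scaling by DESeq2 size factors (adjusted p = 0.0588) or by library totals (0.125) and the omission of control replicate A (0.0797) or overexpressor replicate A (0.0556) or C (0.0549). Igf2 rose from myoblasts to myotubes by 2.39 for control, 3.41 for the overexpressor and 0.82 for the knockout (adjusted p at most 4.51e-05). The rise was larger in the overexpressor than in control by 1.02 (SE 0.20, adjusted p = 0.000473) and smaller in the knockout by -1.57 (SE 0.19, adjusted p = 2.57e-06).

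Adding the counts of Gm49394 changed part of this. Gm49394 had 12 to 13 counts per library in control myoblasts, 3 to 9 in overexpressor myoblasts and 125 to 211 in knockout myoblasts. In myotubes it stood at 7.28 to 7.99 CPM in control, 6.18 to 8.39 in the overexpressor and 15.2 to 18.3 in the knockout. It rose by 3.73 in knockout myoblasts (SE 0.23, adjusted p = 1.51e-10) and by 1.08 in knockout myotubes (SE 0.15, adjusted p = 5.42e-06). With both genes summed, a step added after the data were seen, the knockout differed from control by 0.93 in myoblasts (adjusted p = 9.06e-07) and by only -0.24 in myotubes (adjusted p = 0.0413). The overexpressor differed by -1.41 (adjusted p = 2.83e-08) and -0.30 (adjusted p = 0.0159). Overexpressor and knockout myotubes, which differed by 0.81 in Igf2 alone (adjusted p = 4.91e-05), differed by -0.059 in the sum (adjusted p = 0.634). Reads in the shared exons may be in neither count.

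**Figure D3:**
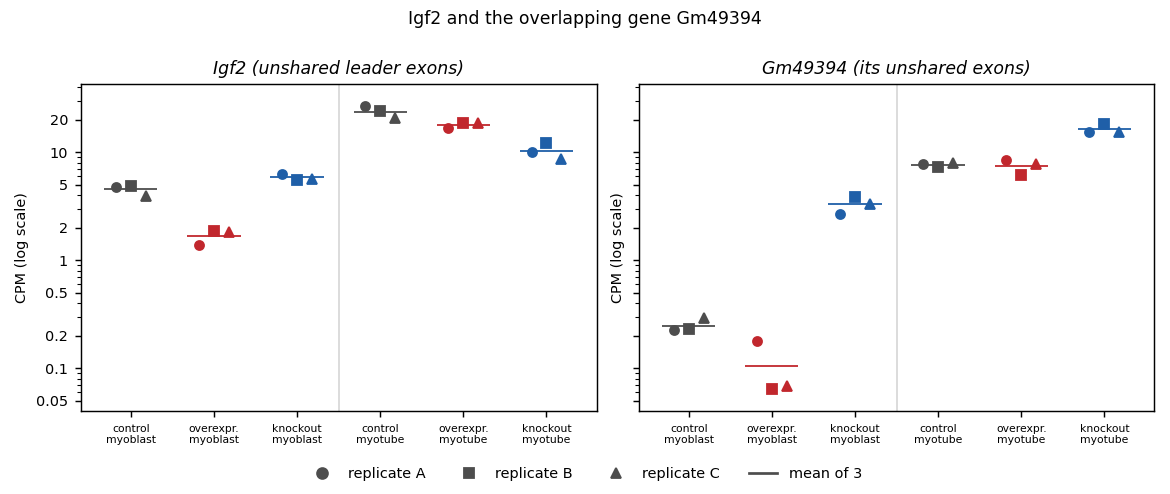
CPM of Igf2 and of Gm49394 in every library on a shared log axis, by line and stage, with lines at the mean of 3. In knockout myotubes Igf2 is at its lowest among myotubes (8.62 to 12.1 CPM) and Gm49394 at its highest (15.2 to 18.3 CPM).

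Both genes of the H19-Igf2 pair were also compared within libraries, as the ratio of their counts, which does not depend on scaling between libraries. There were 605 to 755 counts of H19 per count of Igf2 in control myoblasts, 4047 to 6145 in overexpressor and 2266 to 2616 in knockout myoblasts. In myotubes the ratio was 132 to 180 in control, 879 to 1163 in the overexpressor and 1947 to 3050 in the knockout. The ratio was lower in myotubes than in myoblasts of control and of the overexpressor and overlapped between stages in the knockout. With Gm49394 added to Igf2, the knockout ratio was 1549 to 1605 as myoblasts and 775 to 1103 as myotubes, lower in the latter without overlap. On that sum it was 577 to 703 and 3912 to 5441 in control and overexpressor myoblasts, and 102 to 130 and 620 to 831 in their myotubes, so overexpressor and knockout myotubes then overlapped. No test is drawn from it, since H19 was selected on its counts, and since 3 against 3 libraries cannot reach an exact permutation p under 0.1.

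Igf2r, the receptor that clears IGF2, was the most precisely measured of the 5 other members, with 3354 to 17594 counts per library. It stood at 82.2, 79.4 and 74.7 CPM in control myoblasts, 104.7, 109.5 and 114.1 in overexpressor myoblasts and 144.5, 170.7 and 167.2 in knockout myoblasts. In myotubes it stood at 170.6, 169.3 and 169.5 CPM in control, 170.4, 166.3 and 165.5 in the overexpressor and 273.3, 294.5 and 261.5 in the knockout. Control and overexpressor myotubes and knockout myoblasts overlapped, and knockout myotubes were above all others.

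Igf2r rose in both kinds of clone myoblasts, by 0.475 in the overexpressor (SE 0.066, adjusted p = 1.16e-05) and by 1.03 in the knockout (SE 0.066, adjusted p = 3.52e-10). In myotubes it rose in the knockout by 0.70 (SE 0.066, adjusted p = 3.19e-08). In overexpressor myotubes the log2 difference from control was -0.02 (SE 0.065, adjusted p = 0.811), with a change of sign to 0.091 with DESeq2 size factors, to 0.126 with library totals, to 0.068 with only these 2 groups in the fit and to 0.091 without overexpressor replicate C. Igf2r rose with differentiation by 1.11 for control, 0.61 for the overexpressor and 0.78 for the knockout (adjusted p at most 1.78e-07). The rise was smaller than in control in the overexpressor, by -0.495 (SE 0.093, adjusted p = 0.000305), and in the knockout, by -0.33 (SE 0.093, adjusted p = 0.00726). The latter call was lost with DESeq2 size factors (adjusted p = 0.155). Airn, the noncoding RNA transcribed across Igf2r from the other strand, rose in myoblasts, by 1.55 in the overexpressor (adjusted p = 0.000246) and by 2.35 in the knockout (adjusted p = 9.79e-07), from a mean of 0.55 CPM in control. In overexpressor myotubes Airn rose by 1.12 (adjusted p = 0.000753). In knockout myotubes, where Igf2r rose, Airn stood at 1.40 to 2.49 CPM and overlapped control at 0.97 to 1.71 CPM (log2 difference 0.525, adjusted p = 0.0751).

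Grb10, the adaptor that restrains insulin and IGF1 receptor signalling, was rare, with 16 to 291 counts per library. It stood at 0.64, 0.52 and 0.87 CPM in control myoblasts, 0.40, 0.35 and 0.42 in overexpressor myoblasts and 4.15, 3.73 and 5.18 in knockout myoblasts. In myotubes it stood at 0.93, 1.56 and 1.64 CPM in control, 2.23, 1.79 and 2.31 in the overexpressor and 4.54, 3.78 and 3.87 in the knockout. The knockout libraries of both stages overlapped and were above all 12 others.

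Grb10 rose in the knockout by 2.7 in myoblasts (SE 0.23, adjusted p = 1.14e-08) and by 1.57 in myotubes (SE 0.21, adjusted p = 2.72e-06). In overexpressor myoblasts it fell by 0.79 (SE 0.28, adjusted p = 0.0331), a call lost when control replicate A or C or any of the 3 overexpressor libraries was left out, with the highest adjusted p of 0.156 without control replicate C. In overexpressor myotubes it rose by 0.62 (SE 0.21, adjusted p = 0.0173), and without control replicate A the adjusted p was 0.113. Differentiation raised Grb10 by 1.03 in control (adjusted p = 0.001) and by 2.44 in the overexpressor (adjusted p = 9.19e-08). In the knockout the log2 change was -0.10 (SE 0.19, adjusted p = 0.664), which turned to 0.025 with DESeq2 size factors and to 0.044 without myoblast replicate C. The responses of both clones differed from that of control, by 1.40 in the overexpressor (SE 0.35, adjusted p = 0.00364) and by -1.13 in the knockout (SE 0.31, adjusted p = 0.00518).

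Cdkn1c, the cell cycle inhibitor p57, was higher in myotubes than in myoblasts of every line and low in the overexpressor. Its counts were 371, 369 and 324 in control myoblasts, 27, 9 and 28 in overexpressor myoblasts and 87, 150 and 140 in knockout myoblasts. In myotubes they were 1562, 1511 and 1928 in control, 844, 81 and 803 in the overexpressor and 2238, 2649 and 2086 in the knockout. Replicate B of the overexpressor myotubes stood apart from A and C, at 1.01 CPM against 12.5 and 11.1 CPM.

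Cdkn1c was lower in overexpressor than in control myoblasts by a log2 difference of -3.94 (SE 0.73, adjusted p = 0.00047), from 7.09 to 0.46 CPM. In knockout myoblasts it fell by 1.58 (SE 0.58, adjusted p = 0.0329), a call lost without any 1 of the 6 libraries compared (adjusted p up to 0.0984, without knockout replicate A) and with no filter on low counts (0.0831). In overexpressor myotubes it fell by 2.01 (SE 0.53, adjusted p = 0.00459), and with only these 2 groups in the fit the adjusted p was 0.079. In knockout myotubes the difference from control was 0.35 (SE 0.51, adjusted p = 0.552) although the libraries did not overlap, and it passed with only these groups in the fit (adjusted p = 0.00367). Differentiation raised Cdkn1c by 2.22 in control (adjusted p = 0.0023), 4.15 in the overexpressor (adjusted p = 0.000136) and 4.15 in knockout cells (adjusted p = 2.73e-05). The response of the knockout exceeded that of control by 1.93 (SE 0.77, adjusted p = 0.0498), and this call was lost without any 1 of the 12 libraries compared (adjusted p up to 0.104). That of the overexpressor exceeded it by 1.94 (adjusted p = 0.115), or by 2.47 (adjusted p = 2.62e-06) without myotube replicate B.

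Plagl1 was close to the detection limit outside the knockout. Its counts were 21, 2 and 7 in control myoblasts, 2, 1 and 5 in overexpressor myoblasts and 119, 132 and 123 in knockout myoblasts. In myotubes they were 5, 3 and 11 in control, 20, 2 and 31 in the overexpressor and 92, 100 and 46 in the knockout. All 6 knockout libraries were above all others, and the other 4 groups overlapped. A count of 0 would have allowed 3 counts, or 0.0375 to 0.0693 CPM depending on the library, a limit for counting error only.

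Plagl1 rose in knockout myoblasts by 3.57 (SE 0.60, adjusted p = 8.21e-05) and in knockout myotubes by 3.48 (SE 0.66, adjusted p = 0.000186). The overexpressor differed from control by -1.75 in myoblasts (SE 1.00, adjusted p = 0.183) and by 0.97 in myotubes (SE 0.77, adjusted p = 0.299), and the latter passed without overexpressor replicate B (adjusted p = 0.0355). Between stages the log2 difference was -0.67 in control (adjusted p = 0.505), 0.40 without myoblast replicate A. It was 2.05 in the overexpressor (adjusted p = 0.0632), which passed without myotube replicate B (adjusted p = 0.0034) and with DESeq2 size factors (0.049). In the knockout it was -0.76 (adjusted p = 0.168), although the libraries did not overlap (2.19 to 2.56 CPM in myoblasts, 0.96 to 1.67 in myotubes), and with only these groups in the fit it passed (-0.69, adjusted p = 0.0122). The response of the overexpressor differed from that of control by 2.72 (SE 1.26, adjusted p = 0.101), and this passed without overexpressor myotube replicate B (adjusted p = 0.0109) or control myoblast replicate B (0.0413).

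**Figure D4:**
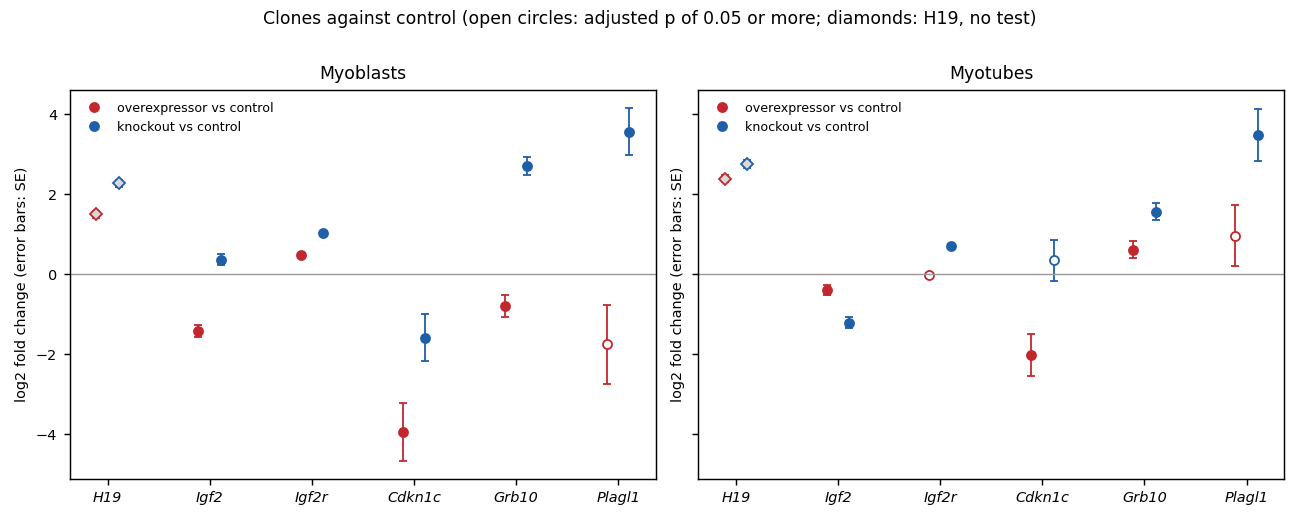
Log2 fold change of each gene in the 2 clones against control, in myoblasts and in myotubes, with bars of 1 standard error; open circles did not pass the threshold and diamonds mark H19, for which no test is given. Grb10 and Plagl1 lie above 0 in the knockout in both stages (1.57 to 3.57), and Cdkn1c lies below 0 in the overexpressor in both (-3.94 and -2.01).

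Counted over the 5 members other than H19, with the shares of all 17912 genes tested beside them, the contrasts compared as follows. In overexpressor against control myoblasts 1 rose and 3 fell, where 40.4% of all genes passed, 20.7% higher and 19.7% lower. In knockout against control myoblasts 4 rose and 1 fell (all genes 53%, with 26.4% higher and 26.6% lower). In overexpressor against control myotubes 1 rose and 2 fell (57.1%, with 26.2% higher and 30.9% lower, while under library totals 57.8% of the calls were higher). In knockout against control myotubes 3 rose and 1 fell (68%, with 31% higher and 37% lower). In knockout myoblasts the count was 3 in place of 5 without control replicate A or C or without knockout replicate A, B or C. In overexpressor myotubes it was 1 in place of 3 without control replicate A or with only the groups compared. Against such shares, a count over 5 genes sets nothing apart about them.

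The clones also differed from each other. All 5 passed between overexpressor and knockout in myoblasts, each lower in the overexpressor, where 52.6% of all genes passed. The log2 differences ran from -0.555 for Igf2r (SE 0.066) to -5.32 for Plagl1 (SE 0.74), and the call of Cdkn1c (-2.37, adjusted p = 0.0185) was lost without overexpressor replicate B (adjusted p = 0.0798). In myotubes all 5 passed again (all genes 59.7%), with Igf2 higher and the other 4 lower in the overexpressor. Those values were -0.72 for Igf2r (adjusted p = 6.03e-08), -0.95 for Grb10 (adjusted p = 0.00047), -2.36 for Cdkn1c (adjusted p = 0.00167) and -2.51 for Plagl1 (adjusted p = 0.00111).

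From myoblasts to myotubes 4 of the 5 rose in control (all genes 62.8%, with 33.9% higher and 28.8% lower, while under library totals 37.9% of the calls were higher) and 4 in the overexpressor (62.8%, with 29.8% higher and 33% lower). In the knockout 3 rose (65.4%, with 29.8% higher and 35.6% lower, and 34% of the calls higher under library totals), and none of the 5 was called lower in any line, while Plagl1 in the knockout was called lower with only the groups compared (adjusted p = 0.0122). The difference in response from control passed for 3 of 5 in the overexpressor (5 without its myotube replicate B) and for 4 of 5 in the knockout, where 39% and 50.1% of all genes passed. The knockout response started from myoblasts that already held myotube markers at 8611 to 10997 CPM. The part of this in the members' responses was not tested.

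**Figure D5:**
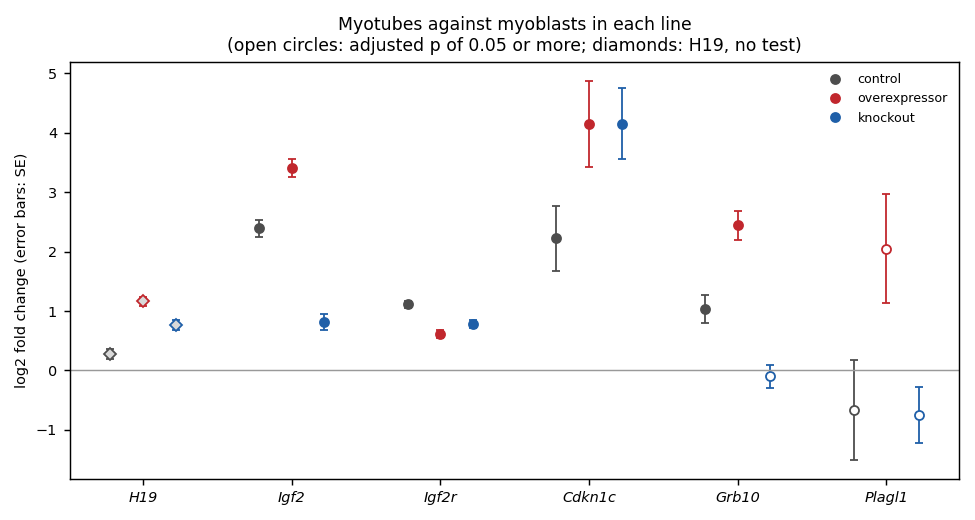
Log2 fold change from myoblasts to myotubes of each gene in the 3 lines, with bars of 1 standard error; open circles did not pass the threshold and diamonds mark H19, for which no test is given. Igf2 and Grb10 are highest in the overexpressor (3.41 and 2.44) and lowest in the knockout (0.82 and -0.10).

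Across the 18 libraries Pearson's r of log2 CPM between members ran from -0.026 to 0.83. It was highest between Grb10 and Plagl1, followed by Igf2r and Grb10 (0.775) and Igf2 and Cdkn1c (0.73). H19 had an r of 0.71 with Igf2r, 0.66 with Grb10, 0.54 with Plagl1, 0.10 with Igf2 and -0.026 with Cdkn1c. These describe 18 libraries of 3 lines, which share line and stage. The 3 genes most like H19 over the libraries were Ppp1r14c (r = 0.989), Mrln (0.983) and Dusp6 (0.981). Those most like Igf2 were Adamtsl2 (0.978), Cmklr1 (0.971) and R3hdml (0.969), and those most like Igf2r were Cacng1 (0.982), Ube2f (0.981) and Tpt1-ps3 (0.98). For Grb10 they were Ddc (0.967), its neighbour on chromosome 11, Mrps22 (0.963) and Ryr3 (0.959). For Cdkn1c, Ndufb7 led (0.935), followed by Zfp30 and Pfdn5, and for Plagl1, Mageb4 (0.911), followed by Sox8 and Rps12.

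Neighbours of H19 and Igf2 on chromosome 7 were described from a list. Of 20 listed, 16 were tested. In overexpressor against control 10 rose and 1 fell in myoblasts (all genes 20.7% higher and 19.7% lower), and 10 rose and 2 fell in myotubes (26.2% and 30.9%). In knockout against control 11 rose and 2 fell in myoblasts (26.4% and 26.6%), and 10 rose and 3 fell in myotubes (31% and 37%). These shares of all genes apply to the counts of every list that follows. In each list, rose and fell mean higher or lower than control of the same stage. The list medians were 0.36, 0.60, 0.71 and 0.50 in that order, beside -0.068 to 0.019 over all genes, and 0.30 in place of 0.36 with genes at the detection limit set at their bound. It contains the fast troponin genes Tnni2 and Tnnt3, which are myotube genes and rose by 5.22 and 5.38 in knockout myoblasts (adjusted p at most 4.07e-11).

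Nctc1, a noncoding RNA downstream of H19 at a muscle enhancer shared with Igf2, had 0 counts in control myoblasts, 0 to 4 in overexpressor and 25 to 52 in knockout myoblasts. In myotubes it had 31 to 41 counts in control, 626 to 765 in the overexpressor and 364 to 392 in the knockout. It rose by 3.76 in overexpressor (SE 0.23, adjusted p = 6.19e-10) and by 3.33 in knockout myotubes (SE 0.23, adjusted p = 2.45e-09). Igf2os, on the strand opposite to Igf2, rose by 1.89 and 1.23 in those myotubes and by 3.59 in knockout myoblasts (adjusted p at most 1.02e-07). In the myotubes of both clones, Nctc1 and Igf2os were thus higher and Igf2 lower than in control. That lower Igf2 was a call lost under 7 of 12 alternatives in the overexpressor, and was -0.24 in the knockout with Gm49394 added. In knockout myoblasts Nctc1 and Igf2os were higher and Igf2 was too (0.365, a call lost under 6 of 12 alternatives). Nctc1, Igf2os and Igf2 were each higher in myotubes than in myoblasts of every line. At the other end of the region, the imprinted genes Ascl2 and Phlda2 had at most 2 counts in any library, and Kcnq1ot1, the antisense RNA that controls the Cdkn1c domain, had 20 to 113.

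At the other domains, 4 of 8 listed neighbours were tested. In both kinds of clone myotubes none fell, with 4 higher in the overexpressor and 3 in the knockout, and in knockout myoblasts all 4 rose. In overexpressor myoblasts 2 rose and 1 fell. The list medians were 0.68 and 2.54 in overexpressor and knockout myoblasts (2.34 for the latter with genes at the detection limit at their bound) and 0.82 and 1.37 in myotubes. Ddc, which codes for aromatic L-amino acid decarboxylase and lies next to Grb10, went with it in direction in each comparison with control. It fell by 1.34 in overexpressor myoblasts (adjusted p = 5.06e-07) and rose by 2.34 in knockout myoblasts (adjusted p = 2.94e-11), 0.52 in overexpressor (adjusted p = 0.00111) and 1.51 in knockout myotubes (adjusted p = 3.68e-09). Cobl, an actin nucleator on the far side of Grb10, rose in the same 4 comparisons by 1.35, 2.74, 0.18 and 1.23. Its rise in overexpressor myotubes (adjusted p = 0.0314) was lost without control replicate B (adjusted p = 0.124) or C (0.0755), or overexpressor replicate A (0.126) or B (0.0595).

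Of the 3 genes described as miR-675 targets, none rose and 2 fell in overexpressor myoblasts, all 3 fell in knockout myoblasts, and 1 rose and 2 fell in the myotubes of each clone, with list medians of -0.49 and -0.60 in overexpressor and knockout myoblasts and -0.37 and -1.04 in myotubes. Smad1, a BMP signal transducer, fell in all 4 comparisons: by 1.16 and 1.00 in overexpressor and knockout myoblasts and by 1.53 and 1.25 in their myotubes (adjusted p at most 3.91e-09). It stood at 54.1 to 59.2 CPM in control myoblasts against 24.6 to 25.5 in the overexpressor. Its longest annotated 3′ UTR held neither seed complement. Other kinds of site were not looked for, and an action of miR-675 on these genes was not tested. Smad5, with 1 seed complement, fell by 0.60 in knockout myoblasts (adjusted p = 9.64e-05) and 1.04 in knockout myotubes (adjusted p = 1.13e-07). In the overexpressor its log2 difference was -0.07 in myoblasts (adjusted p = 0.658) and -0.37 in myotubes (adjusted p = 0.00542), and the latter call was lost with library totals (0.0948) and with only these groups in the fit (0.0535). Cdc6, a replication licensing factor with 1 seed complement, was below control in the myoblasts of both clones (-0.49 and -0.42). In their myotubes it was above control by 1.80 and 2.60 (adjusted p at most 0.0105 over the 4). The call in knockout myoblasts was lost without control replicate C (adjusted p = 0.0591). From myoblasts to myotubes, mean Cdc6 went from 37.3 to 1.73 CPM in control, 26.6 to 5.99 in the overexpressor and 27.9 to 10.5 in the knockout.

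The IGF and insulin pathway around Igf2 held 22 listed genes, all tested. In overexpressor against control 10 rose and 8 fell in myoblasts and 7 rose and 9 fell in myotubes. In knockout against control 8 rose and 8 fell in myoblasts and 9 rose and 10 fell in myotubes. The list medians lay between -0.081 and 0.085. Igf1, the other ligand, had 0 to 2 counts in overexpressor myoblasts against 438 to 741 in control, and 1.15 to 3.13 CPM in overexpressor myotubes against 72.3 to 85.9 in control. Knockout libraries were also below control, with 279 to 362 counts of Igf1 as myoblasts and 5.98 to 8.59 CPM as myotubes. Igf1r, the receptor for both ligands, rose in the knockout by 0.73 in myoblasts and 0.87 in myotubes (adjusted p at most 1.82e-07).

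IGF binding proteins hold the ligands outside the cell. Igfbp5 rose in overexpressor myoblasts by 2.91 and in knockout myoblasts by 2.41 (adjusted p at most 6.34e-15), from a mean of 736 CPM in control. Igfbp2 rose by 3.83 and 3.79 in overexpressor and knockout myotubes. Igfbp4 fell by 5.49 and 3.59 in the same myotubes. Igfbp3 had 0 to 1 counts in the knockout as myoblasts, against 2381 to 2868 in control. As myotubes it had 0 to 2, against 6298 to 7583. Overexpressor libraries were also below control, with 354 to 483 counts of Igfbp3 as myoblasts and 1166 to 1544 as myotubes. Igf2bp2, which binds Igf2 messenger RNA, rose by 3.03 and 3.18 in overexpressor and knockout myotubes (adjusted p at most 8.24e-13).

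Other imprinted genes, 12 of 14 listed being tested, went both ways, with more higher than lower in each comparison with control. In overexpressor against control 7 rose and 3 fell in myoblasts, and 6 rose and 4 fell in myotubes. In knockout against control 6 rose and 2 fell in myoblasts, and 6 rose and 4 fell in myotubes. The list includes Meg3 itself, whose promoter was edited. The median was 0.73 in overexpressor myoblasts (0.32 with genes at the detection limit set at their bound), 0.31 in knockout myoblasts and 0.25 in knockout myotubes. In overexpressor myotubes it was 1.10 as fitted and -0.05 with genes at the detection limit set at their bound. Mest, a paternally expressed gene of mesoderm, fell by 7.87 in knockout myoblasts (adjusted p = 8.74e-15), and rose by 4.33 in overexpressor myotubes (adjusted p = 3.6e-13). Peg10 fell by 3.03 in overexpressor myoblasts, by 4.09 in their myotubes and by 1.15 in knockout myotubes. Zim1 rose by 1.85 and 3.45 in knockout myoblasts and myotubes. It was higher in the overexpressor as well, at 38.0 to 59.8 CPM in myoblasts against 12.9 to 19.1 in control. In overexpressor myotubes Zim1 stood at 16.5 to 30.9 CPM against 2.97 to 4.24 in control.

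The remaining lists concern what the members act on. Of 7 listed cell cycle genes, 1 rose and 1 fell in overexpressor myoblasts, 2 rose and 2 fell in knockout myoblasts, 6 rose and 1 fell in overexpressor myotubes, and 4 rose and 1 fell in knockout myotubes, where 40.4%, 53%, 57.1% and 68% of all genes passed. The medians were -0.02, -0.22, 0.975 and 0.86 in that order, against 0.015, 0.019, -0.037 and -0.068 over all genes. Cdkn1a (p21), of the same inhibitor family as Cdkn1c, rose by 0.76 in overexpressor and by 2.72 in knockout myoblasts (adjusted p at most 7.33e-06), where Cdkn1c fell. Cyclin A2 (Ccna2) was higher than control by 1.27 and 1.37 in overexpressor and knockout myotubes. Its mean was lower in myotubes than in myoblasts of every line. It went from 257.6 to 17.0 CPM in control, 253.5 to 41.0 in the overexpressor and 220.9 to 44.0 in the knockout. Of 7 genes that make or read the mannose 6-phosphate tag bound by IGF2R, 4 rose in overexpressor myoblasts, 3 rose and 1 fell in knockout myoblasts, 1 rose and 3 fell in overexpressor myotubes, and 2 rose and 1 fell in knockout myotubes. The medians were 0.30, 0.14, -0.18 and -0.02. Gga2, a sorting adaptor for such receptors, rose in all 4 comparisons by 0.43 to 0.69 (adjusted p at most 8.02e-05).

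Of 6 genes that maintain imprints, 1 fell in overexpressor myoblasts, 1 rose and 2 fell in knockout myoblasts, 4 rose in overexpressor myotubes, and 4 rose and 1 fell in knockout myotubes. The medians were -0.22, -0.09, 0.32 and 0.64. Dnmt1, the maintenance DNA methyltransferase, fell by 0.58 in overexpressor and by 0.71 in knockout myoblasts. Uhrf1, which recruits it, was lower than control by 0.69 in knockout myoblasts and higher by 2.20 and 2.56 in overexpressor and knockout myotubes. Its mean was lower in myotubes than in myoblasts of every line. It went from 198 to 6.12 CPM in control, 170 to 28.1 in the overexpressor and 123 to 36.0 in the knockout. Zfp57, which binds methylated imprinting control regions, rose by 1.04 and 1.17 in the same myotubes. DNA methylation and the parental origin of the transcripts were not measured.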

How the data were processed

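Polyadenylated RNA of 18 libraries was sequenced, and gene-level raw counts were deposited by the authors. Per the submitters' processing notes, the build was mm10 and the tools were STAR 2.7.9a, featureCounts, Subread 2.0.3, FastQC 0.11.7 and DESeq2 1.32.0. Their roles, the annotation release and the strand setting are not given in the sources used here. A variance-stabilised table on a log2-like scale, also deposited by the authors, was used only for an alternative value of the H19 to Igf2 ratio. Of 55450 gene IDs, 55104 matched GENCODE vM21 symbols, and the rest held 0.0332% of counts.

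Groups came from the sample labels. Counts were fitted with edgeR 4.0.16 (R 4.3.3, limma 3.58.1): TMM factors of 0.895 to 1.08, edgeR's expression filter, a robust quasi-likelihood fit of 6 groups (12 residual degrees of freedom) and 11 contrasts. Every adjusted p is the two-sided edgeR quasi-likelihood p with Benjamini-Hochberg adjustment over 17912 genes, at a threshold of 0.05. No replicate pair agreed within sampling noise (chi-square per degree of freedom at least 4.459). Overexpressor myotube replicate C stood furthest from its group, at 107.7 against A and 102.9 against B, while A against B gave 21.01. Without that library, 51.5% of the calls in overexpressor against control myotubes were higher. On simulated overexpressor and control myoblasts (14353 genes), 80 of 100 genes changed 2-fold and 53 of 100 changed 1.5-fold were called in the right direction. Of the unchanged genes 5 were called. Genes of low count were left out of the simulation. Only 200 genes were changed in it, while 40.4% passed in the measured contrast, so its shares need not hold there.

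The members and gene lists (IGF and insulin signalling, imprinted genes, neighbours of H19, neighbours at other domains, miR-675 targets, cell cycle, mannose 6-phosphate, imprint maintenance and cell type markers) were chosen with earlier results of these data known. List genes were named when they passed with replicates that did not overlap, at most 2 highest and 2 lowest per comparison reaching 5 CPM. Neighbours and miR-675 targets could be named whatever their result, and Igf1r and Gm49394 were added after their values were seen. Alternatives were DESeq2 1.42.0 size factors and Wald test, library totals, no filter, a replicate block, only the groups compared, and leaving out each library. Sums of Igf2 with Gm49394 and of Cdkn1c with Gm44732 were added after the data were seen.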

Additional observations from a re-analysis of the deposited data

Results flagged for a closer look

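The response to differentiation differed from that of control, by a test of the difference itself, for 3 of the 5 members other than H19 in the overexpressor and 4 of 5 in the knockout, where 39% and 50.1% of all 17912 genes passed the same tests. Both responses were set against the same control libraries. For Igf2 the log2 difference was 1.02 in the overexpressor and -1.57 in the knockout, and for Grb10 it was 1.4 and -1.13, so each gene lay above control in 1 clone and below it in the other. For Igf2r it was -0.495 and -0.327, below control in both. For Cdkn1c it was 1.93 in the knockout, the call with the adjusted p nearest to the threshold (edgeR, 0.0498).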

How the results depend on the processing

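Of 739 alternatives for the single members other than H19, 668 kept direction and side of the threshold, 45 lost a call, 9 gained one and 17 changed sign. Of 144 for the H19 values, 127 moved by less than the spread between replicates, 17 by more, and none changed sign. For other named genes, 1003 of 1020 were kept and 17 lost a call. The members past the threshold, H19 left out, numbered 3 in overexpressor against control myotubes (57.1% of all genes), 1 with only the groups compared, and from 1 (control replicate A omitted) to 4 (overexpressor replicate B omitted) in fits without 1 library. In knockout against control myoblasts (53% of all genes) they numbered 5, and 3 to 4 without 1 library. For the response of the overexpressor (39%) they numbered 3, and 3 to 5. Igf2r in overexpressor against control myotubes changed sign to 0.0911 with DESeq2 size factors and with DESeq2's Wald test. In the same myotubes it was 0.126 with library totals and 0.0677 with only the groups compared, and ran from -0.0316 to 0.0908 with 1 library left out. Igf2 summed with Gm49394, added after seeing the data, gave -0.0592 between overexpressor and knockout myotubes. The differentiation change of Grb10 in the knockout was 0.0246 with DESeq2 size factors and with its Wald test, and -0.201 to 0.0443 with 1 library left out. That of Plagl1 in control ran from -1.24 to 0.399. The difference in Plagl1 response between knockout and control was 0.0611 and 0.0736 with these DESeq2 settings, 0.00525 with only the groups compared and -1.16 to 0.483 with 1 library left out. The log2 ratio of H19 to Igf2 changed by -0.218 to 0.106 between knockout stages with 1 library left out. With Igf2 and Gm49394 summed, added after seeing the data, the log2 ratio differences became 1.34 (knockout against control myoblasts), 1.56 (overexpressor against knockout myoblasts), 3.01 (knockout against control myotubes), -0.328 (overexpressor against knockout myotubes), and -2.44, -2.66 and -0.774 between stages in control, overexpressor and knockout. The cause of these changes was not tested. The all-gene median shifted with scaling: for control differentiation from 0.0704 (TMM) to -0.168 (library totals), for knockout differentiation from -0.0752 to -0.243, for overexpressor against control myotubes from -0.0374 to 0.108, and for knockout against control myotubes from -0.0677 to 0.0603 (DESeq2 size factors).

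The replicate letters did not pair the libraries: of 27 pairs, r ran from -0.358 to 0.264, 3 were over 0.1, and 7 libraries matched their own letter best. With the replicate block, counts of calls were 0.941 to 0.978 times those without it, and among members only the Cdkn1c response of the knockout lost its call (log2 1.92, edgeR adjusted p = 0.061). Low counts limit Plagl1 (1 to 132 per library), Grb10 (16 to 291) and Cdkn1c in myoblasts (9 to 371).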
